A study of Mus musculus with 10 samples.

Results

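Ribosome footprints and total RNA of the same lysates were compared in the cerebellum of wild-type mice, to rank genes by how many footprints they carry for the RNA they have. The comparison used 4 of the 10 libraries of the series: the footprints and the total RNA of wild-type animals 2 and 3. It covered the genes for which the mean read count, a column of the authors' tables that is a geometric mean over the 8 libraries with a column, came to 100 or more, which held for 11676 of the 22046 genes. The genes just inside that limit were B3galt4 (100.09), Adrb1 (100.3) and Abca6 (100.38), and those just outside were Hey2 (99.96), Zfp85 (99.92) and Sema3g (99.7). The wild-type animals were Bmal1+/+ on a C57BL/6 background, born to Bmal1+/- parents, and the knockout animals used for side-by-side values were their Bmal1-/- littermates. Bmal1 (gene symbol Arntl) drives transcription in the circadian clock. The labels name no treatment, the mice lived in 12 h light and 12 h dark, and the age, the sex and the time of day of the dissection are not given in the sources used here. The tissue was whole snap-frozen cerebellum homogenized with cycloheximide, a drug that holds ribosomes in place on mRNA.

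Ribosome profiling reads the short piece of mRNA that each ribosome shields from a nuclease, so footprints per unit of mRNA measure how densely ribosomes sit on it. This density, called translational efficiency, is set mainly by how often ribosomes start at the start codon and how fast they move. Short coding sequences upstream of the main one, structure near the start, sites in the untranslated regions, and programmed events such as frameshifts are textbook ways by which an mRNA tunes it. In neurons many mRNAs are also stored or carried into dendrites and axons while they wait for translation.

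The wild-type footprint libraries held 38.05 M and 27.68 M recovered reads and the wild-type total RNA libraries 25.59 M and 27.75 M. Defining markers of granule neurons (Gabra6, Neurod1, Fat2), Purkinje cells (Pcp2, Calb1, Car8), Bergmann glia (Gdf10, Slc1a3) and oligodendrocytes (Mog, Mag) were read in all 4 libraries. The animals differed in RNA of choroid plexus and of some brainstem markers. Ttr, the main secreted product of the choroid plexus, had a total RNA of 5390 RPKM (reads scaled by length and depth) in animal 2 and 208.4 in animal 3. Of 3 brainstem markers, none of which reached the read minimum, Hoxa5 had 40.6 and 0.727 RPKM and Hoxb5 31.2 and 0, while Tph2 had 0.665 and 0.979. In such bulk tissue, fewer cells of a type and less RNA per cell cannot be told apart. The length by which the authors divided each gene is not given, so RPKM was compared only within a gene.

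The log2 ratio used throughout is footprint minus total RNA on the log2 RPKM scale, after each library was centred on its median gene. A value of 0 therefore means that a gene stands at the same distance from the median in both kinds of library, and all 11676 genes had a median of 0.10. By limma's test, 4408 genes were called higher in footprints (37.8% of those tested) and 3587 lower (30.7%), at an adjusted p under 0.05. With a further demand of at least 1 log2 unit, 1957 genes (16.8%) were higher and 1843 (15.8%) lower. The middle 50% of genes lay between -0.61 and 0.74, and the genes at the 5th and 95th percentiles at -1.88 and 1.56, a span of 10.9-fold. The spread between the 2 animals was small beside this: the SD of a gene over both animals had a median of 0.141, against an SD of 1.08 over genes. Across the 11676 genes, animal 2 and animal 3 correlated with a Pearson r of 0.940 and a Spearman rho of 0.935. These are correlations across genes, which are not independent replicates, and the points share the annotation and each animal its lysate. Of the 3800 genes called at 1 log2 unit or more, 3781 lay on the same side in both knockout animals. Genes picked for their distance from 0 cross it less readily, so this count is no independent check. Of all 11676 genes, 10510 lay on the same side of 0 in both wild-type animals. The knockout libraries did not enter the fit, but they do enter the mean read count by which genes were admitted. Called genes were 55.1% higher with centring and 46% higher on the RPKM as deposited, and for those at 1 log2 unit or more the share was 51.5% with centring and 38.6% as deposited. Without centring the log2 ratio of the median gene is shifted by 0.17 to lower values. High and low are thus relative to the median of each library.

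**Figure D1:**
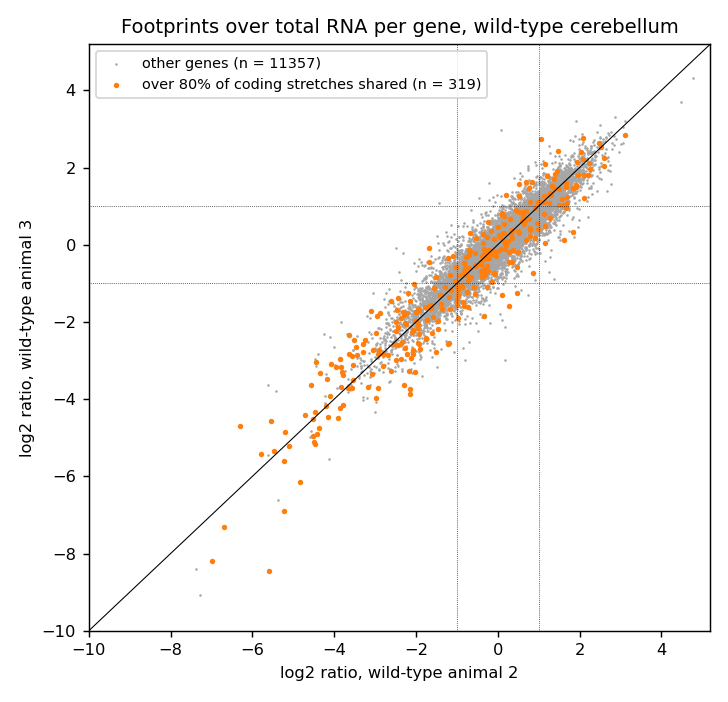
Each point is 1 of the 11676 genes, with the log2 ratio of footprints over total RNA in wild-type animal 2 on the horizontal axis and in animal 3 on the vertical axis. Orange points are the 319 genes with over 80% of their coding stretches of 30 bases shared with another gene, the solid line marks equality and the dotted lines mark 1 log2 unit. The points follow the diagonal (Pearson r 0.940 across genes) and the lowest end is largely orange.

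Among genes of 1000 or more mean reads, the highest log2 ratio was that of Phyhipl. Phyhipl (ENSMUSG00000037747; mm10 chromosome 10, 70557682 to 70655965), which encodes a brain protein related to phytanoyl-CoA hydroxylase interacting protein, had 3937 and 3623 RPKM in footprints and 515.7 and 439.9 RPKM in total RNA of animals 2 and 3. Both footprint values lay far above both total RNA values, at ratios of 7.63 and 8.24, and the log2 ratio was 3.16 (SE 0.116, adjusted p = 8.89e-06). Mapre3, which encodes a protein of growing microtubule ends, had 280.9 and 296.8 RPKM in footprints against 43.6 and 33.4 in total RNA, a log2 ratio of 3.09 (SE 0.152). Vsnl1, a neuronal calcium sensor, had 646 and 578.7 RPKM against 106.2 and 85.9, a log2 ratio of 2.85 (SE 0.141). The groups of libraries did not overlap for any of these genes, which follows from picking them by their ratio.

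Further genes of the same ranking follow. Uqcrq, a small subunit of respiratory complex III, had ratios of 6.59 and 5.99 and a log2 ratio of 2.82 (SE 0.131). Ndufc1, a subunit of complex I, had ratios of 6.37 and 6.33 and a log2 ratio of 2.84, with 27.6% of its coding stretches shared with another gene. Psmb2, a subunit of the proteasome core, had ratios of 7.22 and 5.41. Atp1b2, the glial beta subunit of the sodium pump, had 5.06 and 7.58. Pdia3, which folds glycoproteins in the endoplasmic reticulum, had 5.56 and 6.10. Penk, the precursor of the enkephalin peptides, had 5.29 and 5.64, and the RNA-binding protein gene Pcbp1, which has no introns, had 4.95 and 5.35. In the knockout animals the 12 highest genes with unshared coding sequence (at most 5% of its stretches of 30 bases found in transcripts of another gene) had ratios of 3.74 or more.

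At the low end, among genes of the same depth and with unshared coding sequence, 12 genes had log2 ratios from -3.82 to -3.30. Igsf9b (ENSMUSG00000034275; mm10 chromosome 9, 27299204 to 27357546), an adhesion molecule of inhibitory synapses, had 7.84 and 10.3 RPKM in footprints and 134.2 and 151.1 in total RNA. Its footprints lay below total RNA in both animals, and the log2 ratio was -3.82 (SE 0.155, adjusted p = 1.05e-05). Kcnk10, a potassium channel with tandem pore domains, had 3.99 and 4.26 RPKM against 56.4 and 62.1, a log2 ratio of -3.67 (SE 0.133). Adcy1, the calcium-stimulated adenylyl cyclase of granule neurons, was deeply read, with 9711 and 8205 footprint reads and 97991 and 125553 total RNA reads. Its RPKM values were 37.7 and 43.8 in footprints and 511.7 and 614 in total RNA, a log2 ratio of -3.62 (SE 0.127). Mllt6, which encodes a PHD finger protein, had ratios of 0.0728 and 0.0731 in the 2 animals. The sulfotransferase gene Chst2 was less even, at 0.0563 and 0.102, and so was the transcription factor gene Tcf3, at 0.0967 and 0.0566. The signalling adaptor gene Socs7 had ratios of 0.0849 and 0.0837, and the centromere protein gene Cenpb 0.0878 and 0.0748.

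**Figure D2:**
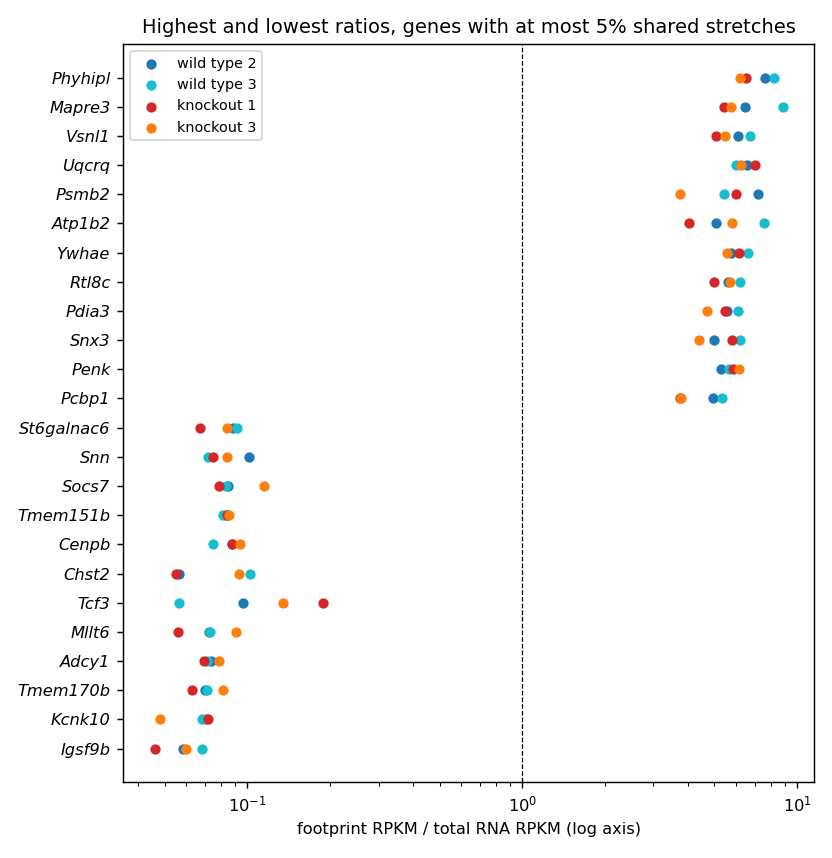
Footprint RPKM over total RNA RPKM, on a log axis, for the 12 highest and 12 lowest genes of 1000 or more mean reads with at most 5% of coding stretches shared, in each of the 4 animals (coloured points). The 12 highest lie between 3.74 and 8.88 in every animal and the 12 lowest between 0.0460 and 0.188.

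The base 3 before the start codon is a main part of the sequence context in which ribosomes recognise a start, and a purine there favours initiation. The contexts of some of the highest and lowest genes are shown to let that base be seen. Each has 10 bases before the start codon and 6 from it on, from the principal GENCODE M21 transcript on build mm10. Capitals mark the start codon and the base 3 before it. The first 6 sequences are of genes at the high end and the other 6 are of genes at the low end, in order of rank, leaving out Tmem170b, whose annotated leader is too short.
Phyhipl: ggtcgcgAagATGgag
Mapre3: actctggGgtATGgct
Vsnl1: taactgcAaaATGggg
Uqcrq: cgccgtcAccATGggc
Psmb2: tcccggcAccATGgag
Atp1b2: tgcctccAagATGgtc
Igsf9b: cggtagtActATGatt
Kcnk10: ttttttgTggATGtat
Adcy1: tggcgctGagATGgcg
Mllt6: tcatgggAgtATGaag
Tcf3: tcctgggTggATGatg
Chst2: tgtgcctGtgATGagc

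All 6 high genes shown have a purine at that base. At the low end Igsf9b, Adcy1, Mllt6 and Chst2 have one too, and Kcnk10 and Tcf3 have a T. Penk, further down the high ranking and not shown, has a C. Among the 50 highest genes of this depth with unshared coding sequence, 49 had a purine there (98%). Among the 50 lowest, 37 of the 46 with a long enough annotated leader did (80.4%), and over all genes 86.8% did. The 2 ends also stood apart in other features of the transcript. No ATG lay in the annotated 5' untranslated region of 69.4% of the 50 highest genes, 15.6% of the 50 lowest and 44.9% of all. The median 3' untranslated region was 554 bases long in the highest, 2915 in the lowest and 1163 in all genes. The median coding sequence had 820.5, 1648 and 1449 bases.

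The very lowest ratios belonged largely to genes whose coding sequence is repeated elsewhere in the annotated transcripts. For each gene the share of its coding stretches of 30 bases that also occur in a transcript of another gene, pseudogenes included, was counted. Over 80% was shared in 319 of all genes (2.73%), in 32 of the 50 lowest and in 5 of the 50 highest. Genes with over 80% shared had a median log2 ratio of -0.77, and 44.8% of them were called at least 1 log2 unit lower. Genes with none shared (7276) had a median of 0.12, and 14.9% of them were called so. The classes between did not fall steadily. Their medians were -0.0052 for over 0 to 5% shared, 0.21 for over 5 to 20%, 0.23 for over 20 to 50% and -0.02 for over 50 to 80%. How the authors' counting treated reads that match several places is not given in the sources used here, and its part in these ratios was not tested.

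The 14-3-3 genes Ywhae and Ywhaq, whose products bind phosphorylated proteins, are an example of such a contrast between members of 1 family. Ywhaq, and Ube2n below, were chosen after their values were seen, and the other 14-3-3 genes are not described here. Ywhae had 287.7 and 264.4 RPKM in footprints against 49.9 and 40.1 in total RNA, a log2 ratio of 2.79 (SE 0.145), and 0% of its coding stretches were shared. Ywhaq had 3.32 and 2.76 RPKM in footprints against 66.0 and 68.2, a log2 ratio of -4.30 (SE 0.154), and 99.7% were shared. Tomm20, a receptor of the mitochondrial import pore, had ratios of 0.0431 and 0.0330 with 90.2% shared. Ube2n, a ubiquitin-conjugating enzyme, had ratios of 0.0237 and 0.0182 with 100% shared. Both have a log2 ratio below -4, at -4.56 and -5.42. The first 60 coding bases of these genes and of Vsnl1 are shown to let the overlap be seen, with capitals for bases that lie inside a stretch shared with another gene (GENCODE M21, mm10).
Ywhae: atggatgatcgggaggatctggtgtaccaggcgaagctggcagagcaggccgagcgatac
Vsnl1: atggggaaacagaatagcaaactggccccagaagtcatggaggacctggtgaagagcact
Ywhaq: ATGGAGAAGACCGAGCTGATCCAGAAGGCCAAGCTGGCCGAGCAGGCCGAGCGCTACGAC
Tomm20: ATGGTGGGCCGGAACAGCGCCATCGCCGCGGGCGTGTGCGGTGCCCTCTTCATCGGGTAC
Ube2n: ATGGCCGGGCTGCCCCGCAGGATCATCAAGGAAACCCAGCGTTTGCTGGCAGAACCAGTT

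The 2 genes with high ratios have no capital in the stretch shown and the 3 with low ratios have nothing else. The genes shown were picked as examples, and a link of overlap and ratio was not tested on them. The lowest gene of all, Gm9938 at -8.18 (SE 0.538, from 10 and 2 footprint reads in animals 2 and 3), matched no annotated coding transcript. Other genes at the bottom of the ranking had such overlap: Chchd2 (log2 ratio -7.59, 97.2% shared), Atp5g1 (-7.03, 100%), Arxes2 (-6.99, 100%) and Sms (-6.06, 100%). These values also rest on few footprint reads. In animals 2 and 3 Chchd2 had 23 and 8, Atp5g1 22 and 2 (SE 0.844), Arxes2 13 and 6, and Sms 67 and 14. Bcl2l2, the lowest of the deeply read genes at -4.79, had 73.5% shared, and Ttbk2, a kinase gene of spinocerebellar ataxia, had 88.6% at -4.52. Sharing did not accompany a low ratio in every gene: Rpl7a had 96.1% shared and a log2 ratio of 2.43, and Eno1 had 89.9% and 2.15. Group results below cover all members of a list, and where stated its members with unshared coding sequence. The counts of each list are to be read beside the shares of all genes tested, 37.8% higher and 30.7% lower. Of all genes, 8972 had unshared coding sequence, with a median of 0.09.

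Among genes of 100 to 1000 mean reads the extremes were further out. Kif24, a kinesin that depolymerizes microtubules at the centriole, had 23.5 and 19.9 RPKM in footprints against 0.974 and 1.13 in total RNA, from 17 and 21 total RNA reads, and a log2 ratio of 4.54 (SE 0.181). Efna2, an ephrin ligand that guides axons, had 34.4 and 25.9 RPKM against 1.74 and 2.25, a log2 ratio of 4.08 (SE 0.208). At the other end Igip had 17 and 6 footprint reads against 2366 and 2470 total RNA reads, a log2 ratio of -7.89 (SE 0.330), with 0% of coding stretches shared. Its annotated 5' untranslated region holds 48 ATG triplets in 2504 bases, and its coding sequence of 159 bases makes up 5.6% of its exons. The part of these features in the ratio was not tested. The atypical chemokine receptor gene Ackr1 (-4.84) and the calcium channel gene Orai2 (-4.70) were next among the genes without shared coding sequence.

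The machinery of protein synthesis was not read at a single efficiency. Of 20 cytosolic aminoacyl-tRNA synthetases, which load amino acids onto tRNAs, 19 were higher and 0 lower, with a median of 0.98 and a range from Vars (0.18) to Dars (1.47). Of 50 initiation factor genes 31 were higher and 11 lower, with a median of 0.46, and the 27 with unshared coding sequence had a median of 0.76. Eif3g, a subunit of the scaffold complex eIF3, was the highest at 2.13 (ratios 4.08 and 3.71), and Eif1, a start codon selection factor with 99.0% shared, was the lowest at -2.43. Of 32 nucleolar ribosome assembly genes 25 were higher and 0 lower (median 0.77), with Ncl, the gene for nucleolin, at 1.59. Of 18 elongation and termination genes 10 were higher and 3 lower. Eef1a2, the neuronal form of the factor that brings tRNA to the ribosome, was at 1.72. Eif5a2, an isoform of the elongation factor eIF5A with restricted expression, was at -2.06. Eef2, the translocase, had ratios of 0.950 and 0.946, and its log2 ratio was not called different from 0 by limma's test (adjusted p = 0.404).

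The cytosolic ribosomal proteins cannot be read in the same way. Of the 80 genes 46 passed the read minimum, 9 were higher and 23 lower, and the median was -0.63, at -0.35 in animal 2 and -0.70 in animal 3. The median share of their coding stretches found in other genes was 91.7%, and 1 member had at most 5% shared. Values ran from Rpl27a (-5.06, 100% shared) to Rpl7a (2.43). The other mRNAs with a terminal oligopyrimidine start, the element through which mTORC1 controls the translation of this class, had a median of 0.50 over 19 genes, with 10 higher and 3 lower. Sharing limits this list too, with a median share of 47.8%. The 3 members with unshared coding sequence were all higher, with a median of 1.80. Of the 19 genes, Pabpc1, the poly(A)-binding protein gene, was at 1.44 and Rack1, a ribosome scaffold gene, at 0.51. Eef1a1 had ratios of 0.764 and 0.805 (log2 ratio -0.18, adjusted p = 0.279). The mTORC1 pathway itself, with 45 genes, had a median of 0.10, the same as all genes, and ran from Lamtor1 (-3.22, 69.2% shared) to Rraga (2.27), 2 proteins that work together at the lysosome.

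Energy metabolism stood high as a group. All 22 citric acid cycle genes were higher, with a median of 1.36 (1.29 over the 17 with unshared coding sequence), from Dlst (0.38) to Mdh2, malate dehydrogenase (2.33). For Mdh2 the RPKM values were 230.3 and 239.1 in footprints against 50.0 and 55.2 in total RNA. Of 77 nuclear genes of the respiratory chain and ATP synthase, 64 were higher and 6 lower, with a median of 1.25, and of the 35 with unshared coding sequence 33 were higher and 0 lower (median 1.29). The lowest of those was Atp5mpl at 0.21. Of 15 glycolytic genes 12 were higher and 1 lower (median 1.08), with Pfkm, the muscle-type phosphofructokinase also made in brain, at 1.34. The exception was Gapdh, at ratios of 0.396 and 0.520 with 100% of its coding stretches shared. Mitochondrial ribosomal proteins followed with 50 of 75 higher and 8 lower (median 0.64). The import pores of mitochondria had a median of 0.05 over 20 genes, and 0.64 over the 9 with unshared coding sequence.

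The 8 mitochondrially encoded genes tested, which are read by the ribosomes of the mitochondrion, had a median of 0.78, with 4 higher and 1 lower. Total RNA of mt-Nd2 differed between the animals. It had 15060 and 10770 RPKM in footprints against 4599 and 1716 in total RNA, so that its ratio was 3.28 in animal 2 and 6.28 in animal 3. mt-Nd4 had ratios of 0.938 and 1.20 (adjusted p = 0.510).

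Protein folding and degradation were also high. Of 27 chaperone genes 24 were higher and 2 lower, with a median of 1.37, and of the 11 with unshared coding sequence all 11 were higher, with the same median. Cct5, a subunit of the chaperonin that folds actin and tubulin, had ratios of 2.34 and 2.26 and a log2 ratio of 1.37, and Hspa5, the main chaperone of the endoplasmic reticulum, was at 1.91. Of 35 proteasome genes 31 were higher and 0 lower (median 1.14, the same over the 21 with unshared coding sequence), and Psmd7, a lid subunit, had ratios of 1.99 and 1.93. The signal recognition, translocation and glycosylation genes of the endoplasmic reticulum had a median of 0.98, with 19 of 27 higher and 2 lower, and Dad1, an oligosaccharyltransferase subunit, was at 2.35. The ubiquitin ligases and proteases of the list, by contrast, had 36 of 127 higher and 46 lower (median -0.05), from Fbxl19 (-3.03) to Usp14, the ubiquitin protease bound to the proteasome (1.99). Of 16 subunits of the vacuolar proton pump 10 were higher and 4 lower (median 0.69), and the 11 with unshared coding sequence had a median of 1.32.

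Tubulins and actins of the cytoskeleton had the highest median of all lists, 1.43 over 13 genes, with 10 higher and 2 lower. Only 2 of the 13 had unshared coding sequence, and the median share of coding stretches found in other genes was 33.2%. Tubb4a had 4383 and 4325 RPKM in footprints against 1076 and 949.8 in total RNA and a log2 ratio of 2.27 (SE 0.0994). Actb had ratios of 2.38 and 2.62. Tuba1a, with 97.9% of coding stretches shared, was the lowest at -2.25. Motor proteins had a median of 0.22 over 51 genes, and Kif1c was the lowest at -2.24. Of these genes 20 were higher (39.2%) and 16 lower (31.4%), close to the shares of all genes, 37.8% and 30.7%. Of 84 small GTPase genes, the switches of membrane traffic, 43 were higher and 23 lower (median 0.43). Arf4, which acts at the Golgi, was at 2.47, and Rhoq, which acts in glucose uptake and at the cell edge, at -2.46, both with 0% shared.

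**Figure D3:**
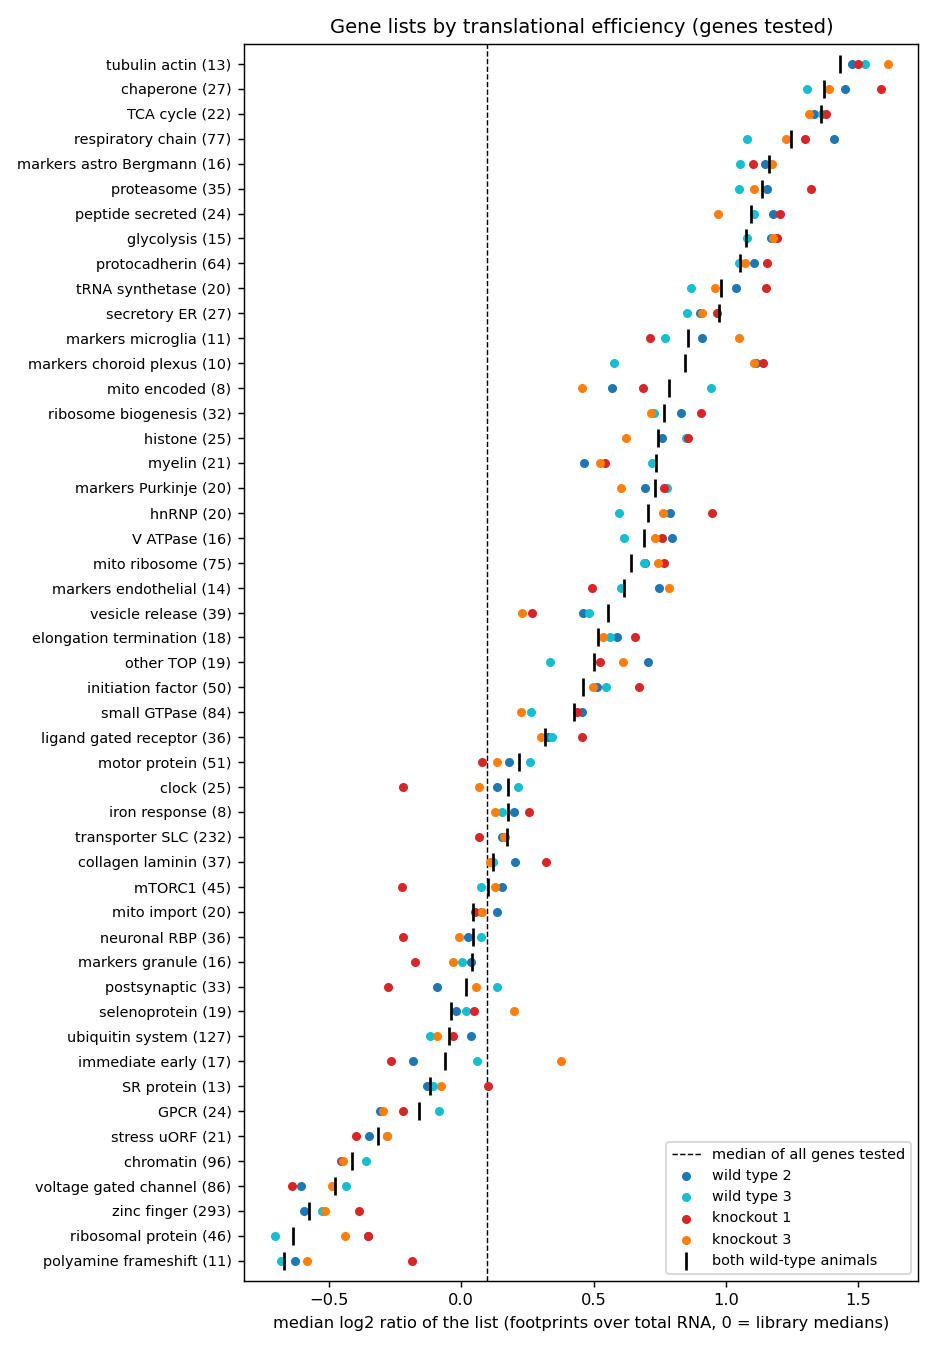
Median log2 ratio of footprints over total RNA for each gene list with at least 5 genes tested, with the number of genes in brackets, in the 2 wild-type animals (blue and cyan), the 2 knockout animals (red and orange) and over both wild-type animals (black bar). The dashed line is the median of all genes tested, 0.10. The lists run from tubulin and actin at 1.43 to polyamine metabolism at -0.67.

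Synaptic genes lay on both sides of the median gene. Of 39 genes of the vesicle release machinery 20 were higher and 12 lower (median 0.55, and 0.56 over the 36 with unshared coding sequence). Syn1, the synapsin that tethers vesicles, had 1826 and 1770 RPKM in footprints against 425.9 and 336.3 in total RNA and a log2 ratio of 2.42 (SE 0.133). Rims2, a scaffold of the release site, had 66.6 and 81.1 RPKM against 459.4 and 473.8 and a log2 ratio of -2.50 (SE 0.118). Of 33 genes of the postsynaptic scaffold and synaptic adhesion 12 were higher and 14 lower (median 0.02), and the 28 with unshared coding sequence had a median of 0.29. Camk2a, the calcium-activated kinase whose mRNA is carried into dendrites of forebrain neurons, was the highest at 1.65 (ratios 2.84 and 2.76). Shank3, a scaffold gene, was the lowest with unshared coding sequence, at -2.37 (ratios 0.140 and 0.211).

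Receptors and channels are the membrane proteins that set how neurons respond and fire. Of 36 ligand-gated receptor subunits 20 were higher and 8 lower (median 0.32). Gria4, a subunit of the fast AMPA-type glutamate receptor, was at 0.32 (adjusted p = 0.0143), and the NMDA-type subunits Grin2a (-2.73) and Grin2b (-2.05) were the lowest of all members and of members with unshared coding sequence. Grin2c, the NMDA-type subunit of mature granule neurons, was at -1.56 (ratios 0.311 and 0.293). Of 86 voltage-gated and other potassium, sodium and calcium channel subunits 18 were higher and 44 lower, with a median of -0.48. The 69 with unshared coding sequence gave 12 higher and 35 lower, with a median of -0.50. Scn2a, a sodium channel of axons, had ratios of 0.642 in both animals and a log2 ratio of -0.47 (SE 0.0908). Kcnip1, a small calcium-binding partner of potassium channels, was at 1.73. Kcnj13, a choroid plexus potassium channel, was at 2.66, with total RNA of 0.751 RPKM in animal 2 and 0.190 in animal 3. Of 24 transmitter receptors coupled to G proteins 4 were higher and 6 lower (median -0.16).

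Secreted peptides and the clustered adhesion molecules had high medians. Of 24 neuropeptide, granin and cerebellin genes 18 were higher and 2 lower (median 1.10), from Nxph3 (-1.17) to Penk (2.62). Chgb, a granin of dense-core vesicles, had ratios of 2.03 and 1.74. Cbln1, the granule neuron protein that joins parallel fibres to Purkinje cells, had ratios of 1.03 and 0.859 (log2 ratio 0.08, adjusted p = 0.638). Of 64 protocadherins 48 were higher and 5 lower (median 1.05). The 53 members of the gene clusters, whose mRNAs join 1 variable first exon to shared last exons, gave 44 higher and 1 lower with a median of 1.22. The other 11 gave 4 higher and 4 lower with a median of -0.31. Clustered members share coding sequence with each other, and how reads of their common exons were counted is not given in the sources used here. Solute carriers, with 232 genes, were close to all genes at a median of 0.17, and collagens and laminins, with 37, at 0.12.

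Zinc finger and chromatin genes stood low, while other nuclear lists did not share this. Of 293 zinc finger genes with the symbol Zfp, most of which encode DNA-binding transcription factors, 18 were higher and 155 lower, and the median was -0.58. The 189 with unshared coding sequence gave 11 higher and 106 lower with a median of -0.58 again. Zfp2 had 146.1 and 147.1 RPKM in footprints against 241.1 and 250.3 in total RNA, and was the median member at -0.58 (SE 0.0978). Zfp568 was the lowest member with unshared coding sequence at -3.66, and Zfp385a the highest of all at 1.73. Of 96 chromatin modifiers and remodellers 19 were higher and 46 lower (median -0.41), and the 82 with unshared coding sequence had a median of -0.42. Tet1, an enzyme that oxidizes methylcytosine, had ratios of 0.0874 and 0.0966 and a log2 ratio of -3.28, and Smarcb1, a core subunit of the BAF remodeller, was at 1.73. Splicing factors of the SR family had a median of -0.12 over 13 genes and the hnRNP family 0.71 over 20 genes, with 13 higher and 4 lower. The 5 hnRNP genes with unshared coding sequence had a median of 0.49. Neuronal RNA-binding proteins were at 0.05 over 36 genes, and Fmr1, the translational repressor lost in fragile X syndrome, had ratios of 0.899 and 0.968 (log2 ratio 0.07, adjusted p = 0.534).

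Of 34 tested genes known for control at the level of translation, 10 were higher and 10 lower, beside 37.8% and 30.7% of all genes, and they ran from Amd1 (-3.74, 100% shared) to Hspa5 (1.91) with a median of -0.18. Among mRNAs with inhibitory upstream reading frames, Ddit3, a transcription factor of the stress response, had 0.939 and 0.993 RPKM in footprints against 9.14 and 10.7 in total RNA and a log2 ratio of -3.19 (SE 0.183). Atf5, a relative of Atf4, was at -1.43, and Ppp1r15b, the constitutive partner of the phosphatase that acts on initiation factor eIF2, at -1.18. Atf4, the central factor of that response, had ratios of 0.698 and 0.734 and a log2 ratio of -0.31 that missed the threshold (adjusted p = 0.0614). Bace1, the beta-secretase with a long leader, was at -1.12. Asns, asparagine synthetase and a target of Atf4, was at 1.53. The list of mRNAs with regulatory upstream reading frames and genes of the integrated stress response was mixed. Of its 21 tested genes 7 were higher and 10 lower (median -0.31). The 17 with unshared coding sequence gave 7 higher and 6 lower (median 0.03), so the low genes named here do not stand for the class.

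Oaz1, the antizyme made through a frameshift that polyamines promote, had ratios of 0.222 and 0.225 (91.0% of coding stretches shared) and Oaz2 was at -0.85. Ornithine decarboxylase, Odc1, had ratios of 0.708 and 0.694 (log2 ratio -0.34, adjusted p = 0.0895). Xiap, an inhibitor of apoptosis with a long structured leader, was at -2.16. Ferritin heavy chain, Fth1, whose leader holds an iron-responsive element, had ratios of 0.689 and 0.738 (adjusted p = 0.205). Among mRNAs that neurons and glia carry into processes, Map1b was at 0.88, Nrgn at 1.66, Arc at 0.48 and Map2 at 0.03 (adjusted p = 0.825). Mbp, the myelin protein gene made at the tips of oligodendrocyte processes, had 455.8 and 467 RPKM in footprints against 962.9 and 596.5 in total RNA, and its log2 ratio of -0.55 missed the threshold (adjusted p = 0.0530).

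Clock genes had a median of 0.18 over 25 genes, with 11 higher and 11 lower. Nr1d1, a repressor of the clock with a short-lived product, was the highest at 1.61 (ratios 2.34 and 3.17), and Clock, the partner of Bmal1, was the lowest at -1.94 (0.236 and 0.228). Arntl itself had 257.6 and 294.7 RPKM in footprints against 178.8 and 179.4 in total RNA, a log2 ratio of 0.79 (SE 0.105, adjusted p = 0.000512). Cry1 was at 0.53, Per2 at -0.47 and Npas2 at 1.22. The 17 immediate early genes of neurons had a median of -0.06, from Btg2 (-3.08) to Egr1 (1.16).

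Markers of the cell types of the cerebellum did not share 1 efficiency. Granule neuron markers had a median of 0.04 over 16 genes, with 5 higher and 6 lower, and Purkinje cell markers 0.73 over 20 genes, with 13 higher and 4 lower. Calb1, the calcium buffer calbindin of Purkinje cells, had 4554 and 3954 RPKM in footprints against 1227 and 1262 in total RNA, a log2 ratio of 1.94 (SE 0.102). Astrocyte and Bergmann glia markers had a median of 1.16 over 16 genes, with 10 higher and 2 lower, and Clu, a secreted chaperone, was at 2.35 (ratios 4.42 and 4.67). Myelin genes had a median of 0.74 over 21 genes, at 0.46 in animal 2 and 0.72 in animal 3. Mobp, a myelin gene, had 324.9 RPKM of total RNA in animal 2 and 170.3 in animal 3, and ratios of 0.275 and 0.402. Choroid plexus markers had a median of 1.11 in animal 2 and 0.58 in animal 3, the animal with less total RNA of Ttr, and 3 of 10 were called higher. For Kl, a membrane protein of that epithelium, total RNA was 277 and 37.2 RPKM and the ratios were 1.84 and 1.12 (adjusted p = 0.644). The part of these differences in total RNA in the ratios was not tested.

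Transcript structure varied along the ranking. With genes in 5 classes of equal size from the shortest to the longest annotated 3' untranslated region, the median log2 ratio was 0.53, 0.37, 0.15, -0.04 and -0.50, and in the last class 31.8% of genes were called at least 1 log2 unit lower, against 7.67% in the class of the shortest. The Spearman rho across 11666 genes was -0.34, and -0.35 in the knockout animals. Genes with no ATG in the annotated 5' untranslated region (5066) had a median of 0.36, those with 1 had 0.05, those with 2 to 3 had -0.13, and those with 4 or more (1545) had -0.32. Genes with a purine 3 before the start codon and a G right after it (5288) had a median of 0.16, and genes with neither (723) had -0.10. Of 5 such classes of coding GC content, the richest in GC had a median of -0.28 and the poorest 0.21. These features are linked to one another and to length. A linear fit on the ranks of 5 transcript features held 17.1% of the variance over genes. The 5 were coding length, the lengths of both untranslated regions, the coding share of the exons and coding GC content. Upstream ATG triplets and the start context were not in the fit. Total RNA is read along the whole mRNA and footprints mainly along its coding part. Over which part of a gene the authors counted is not given in the sources used here, and its part in these differences was not tested. The coding share of the exons had a Spearman rho of 0.23 with the ratio across the same genes.

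**Figure D4:**
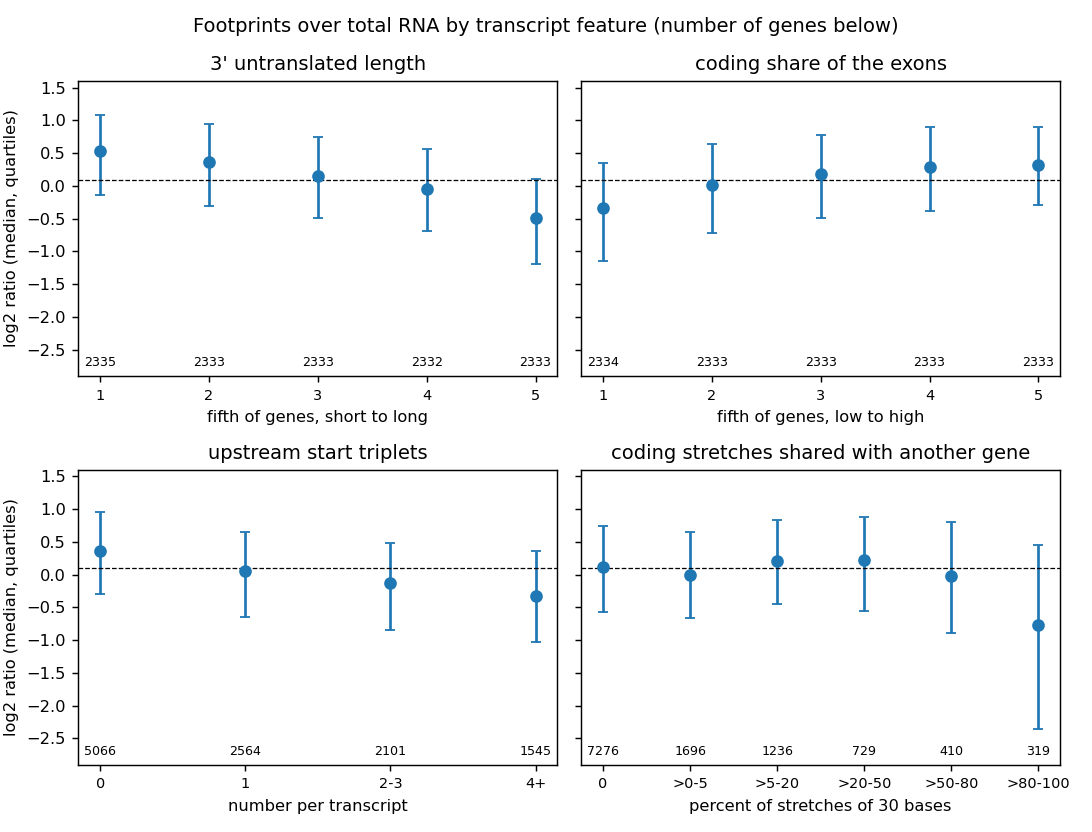
Median (point) and quartiles (bars) of the log2 ratio of footprints over total RNA for genes in classes of 4 transcript features, with the number of genes under each class and the median of all genes as a dashed line. The median falls from 0.53 to -0.50 with 3' untranslated length and from 0.36 to -0.32 with upstream start triplets, rises from -0.34 to 0.32 with coding share, and drops to -0.77 where over 80% of coding stretches are shared.

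After the rank fit on transcript features the order of some lists changed, beside a median of 0.19 for all genes on that scale. Zinc finger genes stayed at -0.57, while voltage-gated and other channels came to -0.09 and chromatin genes to -0.14. Citric acid cycle genes were at 0.91, respiratory chain genes at 0.74 and proteasome genes at 0.55. Vesicle release genes were at 0.88 and postsynaptic genes at 0.49. The clustered and other protocadherins together came to 1.26. The channel list had 3' untranslated regions with a median of 1706 bases, against 1163 in all genes, and their part in its position was not tested. This fit was chosen after the data were seen.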

How the data were processed

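RNA was read from wild-type and Bmal1 knockout mouse cerebellum as ribosome footprints of 28 to 34 nt and as total RNA heat-fragmented for 40 min, both depleted of ribosomal RNA, per the labels' protocols. Bowtie, STAR and Cufflinks were used with build mm10, per the submitters' processing notes. The region and rule of counting are not given in the sources used here. The authors deposited RPKM per library, per the file headers, for 8 of the 10 libraries, and a mean read count per gene, which whole reads recovered from the RPKM show to be a geometric mean count over the 8 deposited columns (2205 values, 100% whole within 0.1). Total RNA of knockout 2 and wild type 1 was not analysed here. The authors' deposited ratio table equalled footprint over total RNA RPKM within 2% in 47790 of 47790 values.

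Log2 RPKM without pseudocount was tested with limma 3.58.1 (R 4.3.3, variance trend, Benjamini-Hochberg over 11676 genes), 2 footprint against 2 total RNA libraries. Replicates are separate animals per the labels. Both libraries of an animal come from 1 lysate per the labels, and their deviations from the group means correlated at 0.27 over 11676 genes. The script was tested on simulated data. Of the genes, 11666 matched a coding transcript of GENCODE M21, and 95.9% had the same span. Genes named are the 12 highest and lowest of 1000 or more mean reads, the 6 highest and lowest below it, the extremes and the median member of each list, and the genes known for control of translation. The repeat of this rule among genes with at most 5% of coding stretches shared, the rank fit on transcript features, Ywhaq and Ube2n were chosen after their values were seen. All members and lists were chosen with earlier results of these data known. Alternatives were another pseudocount, read minimum, centring, normalization, block, trend, fit over 8 libraries, voom on recovered counts, and leaving out libraries.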

Additional observations from a re-analysis of the deposited data

Results flagged for a closer look

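Footprints over total RNA differed between wild type and knockout, by a limma test of the difference itself over the 11676 genes, in 2 genes. For Arntl, the gene targeted in the knockout, the log2 ratio was 1.83 higher in wild type (adjusted p = 0.0158), with ratios of 1.44 and 1.64 in the wild-type animals and 0.463 and 0.393 in the knockout animals. For Rpl13a, a ribosomal protein gene, it was 2.41 higher in wild type (adjusted p = 0.0158), with ratios of 0.0760 and 0.0790 in wild type and 0.0177 and 0.0116 in knockout, and 97.6% of its coding stretches were shared with another gene. No other gene passed the threshold.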

How the results depend on the processing

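A minimum of 1000 mean reads left 6194 genes, of which 2598 were called higher and 2291 lower, 936 and 964 of them at 1 log2 unit or more, and the rank correlation with 3' untranslated length was -0.398. These counts are out of 6194 genes in place of 11676, and the part of read depth in them was not tested. Other read minimums, pseudocounts, normalizations and models kept each count within 1.5 times. With the animal as a replicate block, which pairs the 2 libraries of each lysate, 4572 genes were higher and 3733 lower, 1969 and 1853 of them at 1 log2 unit or more. The block moved no count by over 1.5 times, and of the 259 named genes 250 kept their call and 9 gained one. Leaving out 1 library at a time gave 3486 to 4433 genes higher and 2746 to 3660 lower, and 1925 to 2052 and 1728 to 1920 at 1 log2 unit or more, with the lone library assumed to vary like the others. Over all alternatives, 4176 comparisons of a named gene kept direction and call, 77 lost the call, 51 gained it and 2 reversed. Nrxn2 came to -0.437 with quantile normalization, and Aqp1, a choroid plexus gene, ranged from -4.05 without the footprints of animal 2 to 1.24 without those of animal 3. The cause was not tested. Genes near the read minimum limit the precision of the extremes, and 2 animals allow no estimate of variation between mice beyond these.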

Other observations

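Some gene groups were described above only in part or not at all. Of 25 replication-dependent histone genes that passed the read minimum, of 67 in the table, 17 were higher in footprints and 2 lower (median log2 ratio 0.74), with a median of 64.8% of coding stretches shared. Selenoproteins, which read a stop codon as selenocysteine, gave 6 higher and 6 lower of 19 (median -0.04), from Selenok (-2.53, 81.4% shared) to Selenos (1.36). Genes of polyamine metabolism and frameshifting gave 1 higher and 6 lower of 11 (median -0.67), with Smox, spermine oxidase, at -0.92 and Srm, spermidine synthase, at 1.34. Microglia markers gave 7 higher and 0 lower of 11 (median 0.86), with the lysosomal protease gene Ctss at 1.93, and endothelial markers 8 higher and 0 lower of 14 (median 0.61). Glra1, a glycine receptor subunit, had total RNA of 31.2 RPKM in animal 2 and 10.2 in animal 3, the same order as Hoxa5 and Hoxb5, and ratios of 3.56 and 3.91.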
